A study of Mus musculus with 9 samples.

Results

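The genes of 9 myeloid C-type lectin receptors, Clec4a1, Clec4a2, Clec4d, Clec4e, Clec4n, Clec5a, Clec7a, Clec10a and Clec12a, were followed in mouse macrophages at rest, after M1 induction and after M1 induction with photobiomodulation. They were chosen by name, as the rows whose Ensembl gene ID carries 1 of these symbols, and all 9 were found once among the 55655 rows of each of the 2 expression tables. The rule uses no measured value. The IDs are ENSMUSG00000049037 for Clec4a1, ENSMUSG00000030148 for Clec4a2, ENSMUSG00000030144 for Clec4d, ENSMUSG00000030142 for Clec4e, ENSMUSG00000023349 for Clec4n, ENSMUSG00000029915 for Clec5a, ENSMUSG00000079293 for Clec7a, ENSMUSG00000000318 for Clec10a and ENSMUSG00000053063 for Clec12a.

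The RNA came from bone marrow-derived macrophages (BMDM) of wild-type C57BL/6 mice 6 to 8 weeks old, which are primary macrophages grown from femur and tibia marrow in M-CSF at 10 ng/mL for 7 days. The M0 group (n = 3 libraries) received no further stimulus, the M1 group (n = 3) received lipopolysaccharide (LPS) and interferon-γ, and the M1+PBM group (n = 3) received the same stimuli together with photobiomodulation (PBM), which is irradiation with a near-infrared laser. RNA of both M1 groups was taken at 12 h, whereas the labels give no time for M0. The values are FPKM, fragments scaled to transcript length and to the mapped fragments of the library, so levels can be set side by side between genes, and log2 differences below are on the log2(FPKM + 1) scale. The study describes the sequencing experiment as independently repeated, but the labels tie no library to a mouse or a culture, so the p-values measure the spread between these libraries, part of which may be technical.

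C-type lectin receptors bind sugars and lipids of fungi, bacteria and dead cells on the surface of macrophages, neutrophils and dendritic cells. Clec7a (Dectin-1) signals through its own cytoplasmic tail, while Clec4e (Mincle), Clec4d (MCL) and Clec4n (Dectin-2) use the adaptor Fcer1g and Clec5a (MDL-1) uses Tyrobp, and all these routes reach the kinase Syk and the Card9, Bcl10 and Malt1 complex. Clec4a2 (DCIR) and Clec12a (MICL) carry inhibitory motifs that recruit phosphatases, Clec4a1 is a DCIR family receptor, and Clec10a (MGL1) is an endocytic receptor for galactose-type sugars often used as a marker of alternatively activated macrophages.

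The labelled cell type was checked first. All 7 macrophage markers had a mean of at least 1 FPKM in every group, the summed level of the 8 dendritic cell markers was between 0.811 and 1.87 FPKM in all libraries with Flt3 at 0, and of the 11 neutrophil markers Ly6g was listed at 0 in all 9 libraries, whereas Csf3r was at 102 to 135 FPKM and S100a8 at 6.90 to 27.2 FPKM in M1. The estimated depth lay between 31200000 and 42360000 fragments per library. Some libraries stood apart in ways that touch the results. M0 replicate 3 held more transcripts of 2 LPS and interferon response genes than the other M0 libraries, with Cxcl10 at 16.1 FPKM against 0.491 and 0.154, and Nos2 at 1.79 FPKM against 0.0147 and 0.0133. M1 replicate 2 was the one library with liver albumin transcripts (Alb, 9.01 FPKM). M1 replicate 3 and M1+PBM replicate 3 held the lowest Clec4e, Clec4d and Clec5a levels of their groups, and samples with the same replicate number deviated together over all genes.

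At rest, Clec7a, Clec4d and Clec12a were the most abundant members, whereas after M1 induction Clec4e, Clec4a1 and Clec4d led. Ordered by mean FPKM, the M0 libraries held Clec7a (126.2 ± 69.7, SD, n = 3), Clec4d (78.8 ± 6.99), Clec12a (58.6 ± 1.67), Clec4a1 (20.6 ± 8.47), Clec4a2 (7.75 ± 1.00), Clec5a (6.62 ± 4.78), Clec4e (6.31 ± 8.18), Clec4n (2.75 ± 1.63) and Clec10a (0.836 ± 0.190). The ranges of Clec7a and Clec4d overlapped, the successive ranges from Clec4d through Clec12a and Clec4a1 to Clec4a2 did not, and each receptor from Clec4a2 to Clec10a overlapped with its neighbour in the order. In M1 the order was Clec4e (221.7 ± 79.5), Clec4a1 (160.8 ± 43.2), Clec4d (134.3 ± 38.5), Clec12a (45.1 ± 6.77), Clec7a (15.7 ± 8.98), Clec4n (5.79 ± 3.63), Clec4a2 (5.70 ± 1.01), Clec5a (5.64 ± 2.98) and Clec10a (0.0457 ± 0.0105). The leading 3 overlapped with each other, Clec12a lay below all of them and above Clec7a, and the receptors from Clec7a to Clec5a overlapped with their neighbours, with Clec10a below them all. In M1+PBM the means were 177.0 ± 14.6 for Clec4a1, 175.7 ± 86.9 for Clec4e, 119.5 ± 27.4 for Clec4d, 60.0 ± 1.68 for Clec12a, 12.6 ± 1.98 for Clec7a, 8.89 ± 1.93 for Clec4a2, 5.60 ± 2.20 for Clec5a, 3.48 ± 1.70 for Clec4n and 0.0234 ± 0.0184 for Clec10a. Clec4e overlapped with both Clec4a1 and Clec4d, whereas Clec4a1 lay above Clec4d in all libraries, and Clec12a stood clear of the genes on both sides, while each neighbouring pair from Clec7a to Clec4n overlapped.

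**Figure D1:**
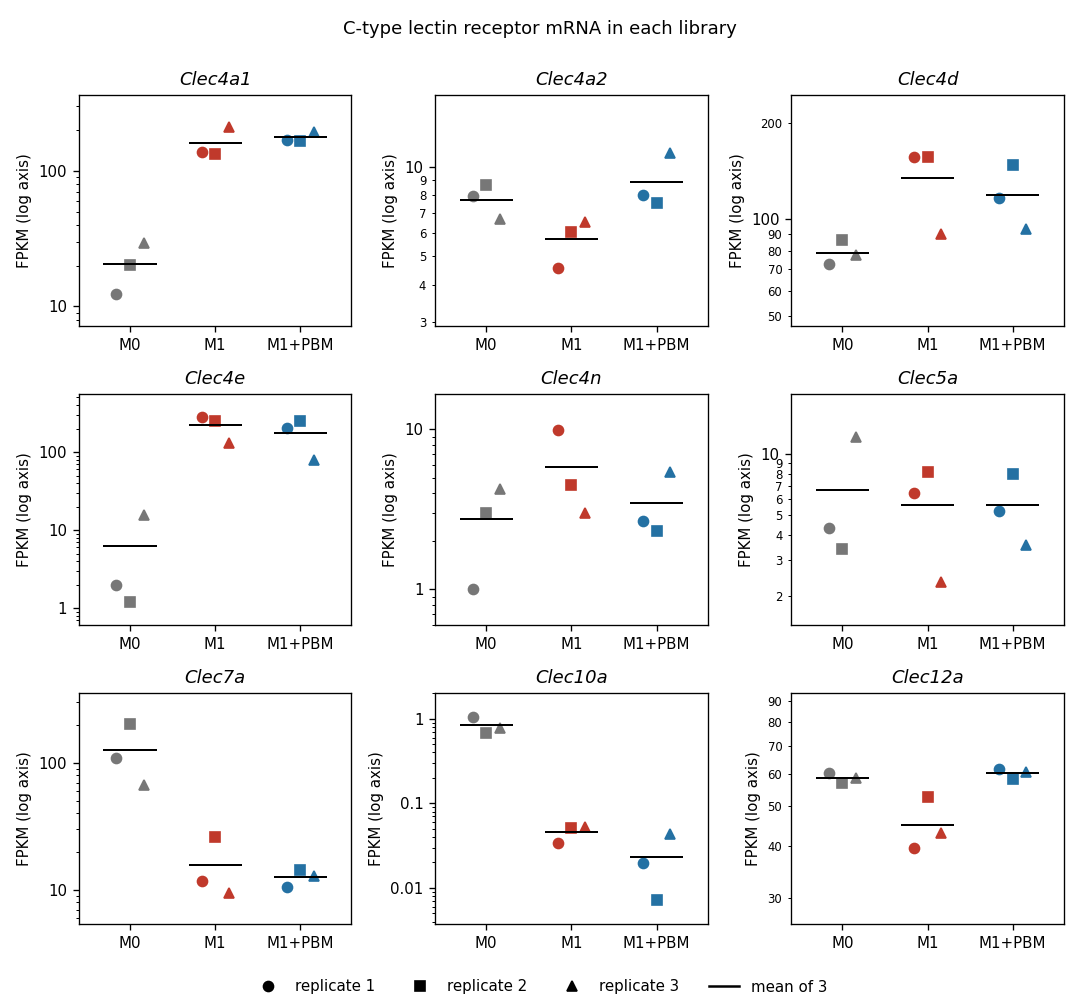
FPKM of the 9 receptors (log axis, a different range in each panel) in each M0, M1 and M1+PBM library, with circles, squares and triangles for replicates 1, 2 and 3 and a line at the mean of 3. Clec4e and Clec4a1 are higher, and Clec7a and Clec10a lower, in all 6 stimulated libraries than in all 3 M0 libraries, and the triangles of Clec4e, Clec4d and Clec5a lie lowest within M1 and within M1+PBM.

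Sequence upstream of the start sites is shown for the 5 receptors on which the comparisons turn: Clec4e, Clec4d and Clec4a1, which were more abundant in M1, Clec7a, which was less abundant, and Clec12a, the more abundant of the 2 receptors whose M1 and M1+PBM libraries did not overlap. RefSeq promoter windows (build GRCm38.p6) were matched for 7 of the 9 members, and Clec4n and Clec10a were not among them. Each line gives the 250 bases before the start, 5′ to 3′ along the gene. Capitals mark matches on either strand to 4 patterns: TTNNGNAA for C/EBP factors, GAGGAAG for PU.1, GGGNNTTCC for RelA-type NF-κB and TGANTCA for AP-1.
Clec4e, chr6:123289872-123290121, minus strand: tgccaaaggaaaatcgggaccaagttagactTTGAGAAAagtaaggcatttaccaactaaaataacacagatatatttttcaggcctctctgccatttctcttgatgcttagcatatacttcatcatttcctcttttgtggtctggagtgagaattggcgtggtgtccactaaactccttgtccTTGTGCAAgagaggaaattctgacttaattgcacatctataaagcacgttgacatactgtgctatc
Clec4d, chr6:123261857-123262106, plus strand: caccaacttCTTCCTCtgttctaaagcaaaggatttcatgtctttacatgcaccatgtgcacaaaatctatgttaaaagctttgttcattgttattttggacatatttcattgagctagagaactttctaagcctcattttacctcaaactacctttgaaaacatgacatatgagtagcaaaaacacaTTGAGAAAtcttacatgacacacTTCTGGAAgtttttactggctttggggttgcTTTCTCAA
Clec4a1, chr6:122921598-122921847, plus strand: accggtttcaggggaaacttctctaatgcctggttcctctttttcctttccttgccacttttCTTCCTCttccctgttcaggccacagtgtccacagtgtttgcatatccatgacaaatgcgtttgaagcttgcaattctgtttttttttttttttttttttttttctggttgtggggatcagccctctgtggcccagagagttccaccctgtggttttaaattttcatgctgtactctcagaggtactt
Clec7a, chr6:129472780-129473029, minus strand: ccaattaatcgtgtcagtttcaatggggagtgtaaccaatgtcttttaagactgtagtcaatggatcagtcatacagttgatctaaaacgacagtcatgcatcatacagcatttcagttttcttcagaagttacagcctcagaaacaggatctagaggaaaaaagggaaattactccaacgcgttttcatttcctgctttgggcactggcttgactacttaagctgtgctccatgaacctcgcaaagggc
Clec12a, chr6:129349994-129350243, plus strand: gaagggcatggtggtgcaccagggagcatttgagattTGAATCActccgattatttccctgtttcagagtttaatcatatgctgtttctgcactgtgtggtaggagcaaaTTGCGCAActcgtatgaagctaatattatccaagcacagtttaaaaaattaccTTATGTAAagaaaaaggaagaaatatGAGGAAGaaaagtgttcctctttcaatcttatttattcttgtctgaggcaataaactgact

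Over the full windows, which add 50 bases after the start, TTNNGNAA was in 5 of the 7 matched members (Clec4a2, Clec4d, Clec4e, Clec5a and Clec12a) and in 40.8% of all 27025 promoters of the same length. The matched letters in Clec4e were TTGAGAAA 219 bases and TTGTGCAA 66 bases before the start. Those of Clec4d began 62, 39 and 8 bases before it. Clec12a held TTGCGCAA 140 bases before its start, which reads the same on both strands, as well as a second match 87 bases before it. GAGGAAG, the pattern of the myeloid factor PU.1, was in 4 of the 7 (Clec4a1, Clec4d, Clec5a and Clec12a) and in 13.5% of all promoters. TGANTCA was in Clec12a and Clec4a2 against 7.91% of promoters, and GGGNNTTCC was in 0 of the 7 against 5.68%. No 2 different patterns overlapped in the 5 printed stretches. Clec7a had 2 promoter windows, and only the one with the lower coordinates was searched. The upstream part of that window, printed above, held none of the 4 patterns. These are matches of letters in a short window and no binding was measured.

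Comparing M1 with M0 addresses which receptors macrophages change when they are driven to the M1 state. Clec4e and Clec4a1 were far more abundant in M1, Clec7a was far less abundant, and the same 3 receptors, and no other tested member, stood apart from M0 in M1+PBM. A gene was taken to stand apart when the libraries of both groups did not overlap and the log2 difference was at least 1. Of the 8 members that reached 1 FPKM in at least 3 of the 9 libraries, 2 stood apart as higher in M1 and 1 as lower, against 7.81% of 13915 rows that were higher and 13.7% that were lower. In M1+PBM against M0, again 2 were higher and 1 lower, against 7.13% and 10.3% of the rows. Since M0 was deposited in a table of its own, these differences are given as descriptions without a test. The median difference of the 8 members between M1 and M0 was 0.29, whereas that of all 13915 rows was -0.34. Scaling all 9 libraries by their median of ratios moved the median of all rows to 0.04 and turned the balance of rows standing apart from 1087 higher and 1904 lower to 1628 higher and 964 lower, so small differences from M0 depend on the scaling. Clec4e, Clec4a1 and Clec7a stood apart in the same direction with the values as deposited, with a pseudocount of 0.1, with median-of-ratios scaling and with quantile normalization.

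Clec4e, the Mincle receptor for mycobacterial cord factor and for a protein of dead cells, showed the widest difference of the 8 members. Its FPKM was 2.0, 1.19 and 15.7 in M0 replicates 1, 2 and 3, it was 281, 253 and 131 in M1, and it was 201, 247 and 78.9 in M1+PBM. The stimulated libraries all lay above the M0 libraries, and within M0 the highest value came from replicate 3, the library with the raised Cxcl10 and Nos2. The mean of M1 was 35.1 times that of M0, with a log2 difference of 5.46 that became 6.37 without M0 replicate 3 and 4.90 without M0 replicate 2. In M1+PBM the log2 difference from M0 was 5.05.

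Clec4d, which encodes the MCL receptor that pairs with Mincle and helps to bring it to the surface, had FPKM values of 72.6, 86.3 and 77.3 in M0, 156, 157 and 89.9 in M1, and 117, 148 and 93.5 in M1+PBM. Unlike Clec4e it was already abundant at rest. Its M1 and M1+PBM libraries all lay above M0, but the log2 differences of 0.72 and 0.57 were below 1 as deposited, with median-of-ratios scaling they were 1.22 and 0.98, and with quantile normalization they were 0.47 and 0.33. Clec4n, the Dectin-2 receptor for fungal mannans, had 1.01, 3.02 and 4.23 FPKM in M0, 9.90, 4.48 and 2.99 in M1, and 2.68, 2.33 and 5.44 in M1+PBM. Its groups overlapped throughout. The log2 difference between M1 and M0 was 0.83, and Clec4n would stand apart without M1 replicate 3, with the difference at 1.15, and also after median-of-ratios scaling (1.19) or quantile normalization (1.17).

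Clec4a1 had FPKM values of 12.4, 20.1 and 29.3 in M0, 139, 133 and 211 in M1, and 169, 168 and 194 in M1+PBM. All 6 stimulated libraries exceeded all M0 libraries, the mean of M1 being 7.82 times that of M0 with a log2 difference of 2.95 between M1 and M0 and of 3.12 between M1+PBM and M0. Clec4a2, its inhibitory relative, had 7.94, 8.64 and 6.67 FPKM in M0 and 4.57, 6.01 and 6.51 in M1. The M1 libraries lay just below those of M0, but the log2 difference of -0.39 was -0.12 with quantile normalization and 0.05 after median-of-ratios scaling, so its direction is not settled. Clec4a1, Clec4a2 and their neighbours Clec4a3 and Clec4a4 are closely related copies, and how fragments that fit more than 1 of them were shared is not given in the sources used here, so their levels are uncertain to that extent.

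Clec7a, the Dectin-1 receptor for fungal β-glucans, had FPKM values of 109, 203 and 66.9 in M0, 11.8, 26.0 and 9.39 in M1, and 10.5, 14.4 and 12.8 in M1+PBM. The stimulated libraries all lay below the lowest M0 library. The mean of M0 was 8.02 times that of M1, and the log2 difference of -2.91 between M1 and M0 stayed between -3.32 and -2.49 when 1 library at a time was left out. In M1+PBM the log2 difference from M0 was -3.09. Replicate 2 held the highest Clec7a level in each of the 3 groups.

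Clec10a was listed at 1.05, 0.675 and 0.787 FPKM in M0, at 0.0336, 0.0507 and 0.0528 in M1, and at 0.0195, 0.00717 and 0.0434 in M1+PBM. All stimulated libraries lay below all M0 libraries. With the longest transcript of the gene and the estimated depth these values stand for at most 54.2 to 76.1 fragments per M0 library and at most 4.35 in any stimulated library, so it was not tested and no fold is given. Clec5a, the DAP12-coupled receptor that binds flaviviruses, had 4.34, 3.41 and 12.1 FPKM in M0, 6.42, 8.15 and 2.35 in M1, and 5.26, 7.95 and 3.58 in M1+PBM. The groups overlapped, and M0 replicate 3 again stood above the other M0 libraries. Clec12a, the inhibitory receptor for uric acid crystals, had 60.2, 56.8 and 58.7 FPKM in M0 and 39.6, 52.7 and 43.1 in M1. Here the M1 libraries lay below M0 as deposited, with a log2 difference of -0.38. That difference was -0.59 with quantile normalization and 0.12 after median-of-ratios scaling, so this direction too depended on the scaling.

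**Figure D2:**
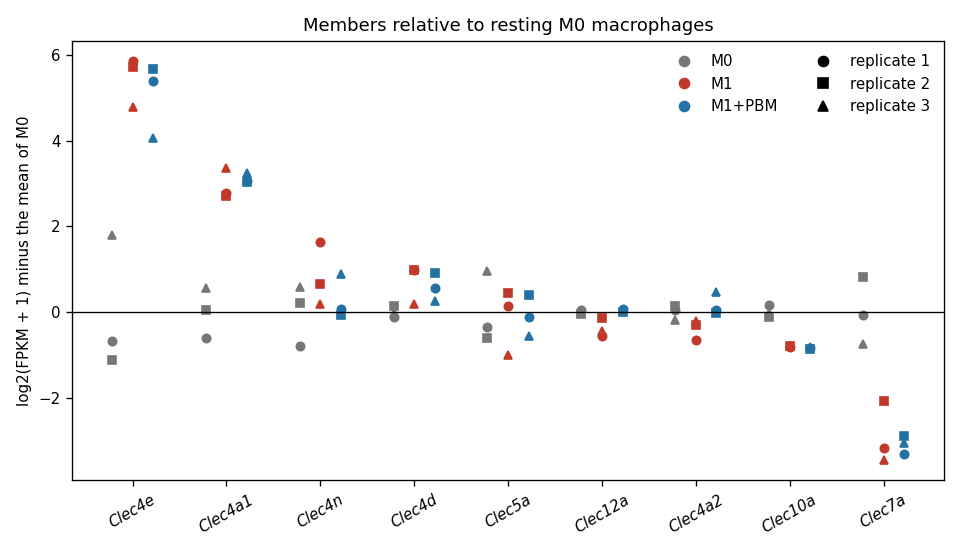
Log2(FPKM + 1) of each library minus the M0 mean of the same gene for the 9 receptors, ordered by the difference between M1 and M0, with grey, red and blue points for M0, M1 and M1+PBM and a shape for each replicate. The stimulated libraries lie between 4.06 and 5.88 above the M0 mean for Clec4e and below it for Clec7a, and M0 replicate 3 lies 1.80 above the M0 mean for Clec4e.

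Some of these receptors are also made by neutrophils and other myeloid cells. The summed level of the 11 neutrophil markers was 14.7 to 28.4 FPKM in M0, 111.8 to 164.2 in M1 and 105.3 to 109.7 in M1+PBM, and most of it was Csf3r, at 11.6 to 24.2 FPKM in M0 and 93.2 to 135.4 in the stimulated libraries. Of these 11 markers, 3 had a mean of at least 1 FPKM in M0 and 4 in each stimulated group, and 4, 4 and 5 were at 0 in every library of M0, M1 and M1+PBM. The summed level of the 5 monocyte markers was 2.08 to 3.28 FPKM in M0, 2.98 to 6.43 in M1 and 2.17 to 5.54 in M1+PBM, and all 6 lymphoid markers had means under 1. The part of these markers in the differences of Clec4e, Clec4a1 and Clec7a was not tested, and in bulk RNA fewer cells of a type and less RNA per cell cannot be told apart.

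The comparison of M1+PBM with M1 addresses what irradiation added to M1 induction. Clec4a2 and Clec12a were slightly higher in all 3 M1+PBM libraries than in all 3 M1 libraries, and no receptor was lower in this way. In the limma test, a call needed an unadjusted p of at most 0.05 together with a log2 fold change of at least 1. Of the 8 tested members 0 were called, against 0.261% of 12238 rows. An adjusted p below 0.05 was reached by 0 members, and by only 1 of all 12238 rows. By the unadjusted p alone, with the same threshold, 2 were higher and 0 lower, against 2.99% of all rows that were higher and 1.45% that were lower. Groups without overlap were seen for 2 higher and 0 lower members, against 8.51% and 2.52% of all rows. The log2 fold change was above 0 in 4 members and below 0 in 4, and the median of the 8 was -0.04 against 0.06 for all rows. The summed level of 8 M1 activation markers was 619 to 1022 FPKM in M1 and 519.9 to 565 in M1+PBM, and its part in the values of the receptors was not tested.

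Clec4a2 had 4.57, 6.01 and 6.51 FPKM in M1 and 8.05, 7.54 and 11.1 in M1+PBM. Every irradiated library exceeded every M1 library and the 3 replicate numbers gave log2 changes of 0.70, 0.28 and 0.69. The log2 fold change was 0.56 (SE 0.18, 95% interval 0.13 to 0.99) with an unadjusted limma p of 0.018, an adjusted p of 0.90, and a two-sided exact permutation p of 0.1, the smallest that 3 against 3 libraries allow. Without M1 replicate 1, its lowest library, the fold change was 0.43 and the unadjusted p from limma was 0.062. The M1+PBM libraries overlapped with M0, whose range was 6.67 to 8.64 FPKM.

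Clec12a had 39.6, 52.7 and 43.1 FPKM in M1 and 61.4, 58.1 and 60.5 in M1+PBM. The irradiated libraries lay above all M1 libraries and overlapped with the M0 values of 56.8 to 60.2 FPKM. Its log2 fold change was 0.41 (SE 0.13, 95% interval 0.11 to 0.72), with an unadjusted limma p of 0.016, an adjusted p of 0.90 and an exact permutation p of 0.1. The changes were 0.62, 0.14 and 0.48 for replicates 1, 2 and 3. Without M1 replicate 1 the unadjusted p from limma was 0.057 with a fold change of 0.33 on the log2 scale, and without M1+PBM replicate 1 it was 0.053 with 0.40. Whether either receptor passed the unadjusted threshold thus depended on single libraries.

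For the remaining 6 tested receptors the 95% intervals of the log2 fold change contained 0. Clec4e had 281, 253 and 131 FPKM in M1 and 201, 247 and 78.9 in M1+PBM, so both groups spanned a wide and overlapping range. The fold change was -0.41 (95% interval -1.58 to 0.75, exact permutation p = 0.5), and all 3 replicate numbers were lower under irradiation, by -0.48, -0.04 and -0.73. When same-numbered libraries were treated as pairs (the replicate block), the SE of Clec4e narrowed from 0.49 to 0.15. With the block its unadjusted limma p was 0.041 (adjusted 0.58). In the unpaired fit without M1+PBM replicate 3 the change was 0.08 in the opposite direction. That fit kept M1 replicate 3, the lowest M1 library, and so broke the pair, and it does not bear on the paired estimate. Clec4n changed by -1.57, -0.72 and 0.69 in replicates 1, 2 and 3, with a fold change of -0.53 (95% interval -1.53 to 0.47). The interval of Clec4d was -0.80 to 0.50 around -0.15 and that of Clec4a1 was -0.30 to 0.63 around 0.17. Clec4a1 had a fold change of 0.38 and an unadjusted limma p of 0.017 without M1 replicate 3, the library with its highest M1 level of 211 FPKM. Clec7a, at -0.18 (95% interval -1.03 to 0.66), and Clec5a, at 0.06 (95% interval -0.95 to 1.06), changed direction when M1 replicate 2 or M1 replicate 3, respectively, was left out. The intervals of Clec4e, Clec4n, Clec5a and Clec7a reached beyond 1 on the log2 scale in at least 1 direction.

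**Figure D3:**
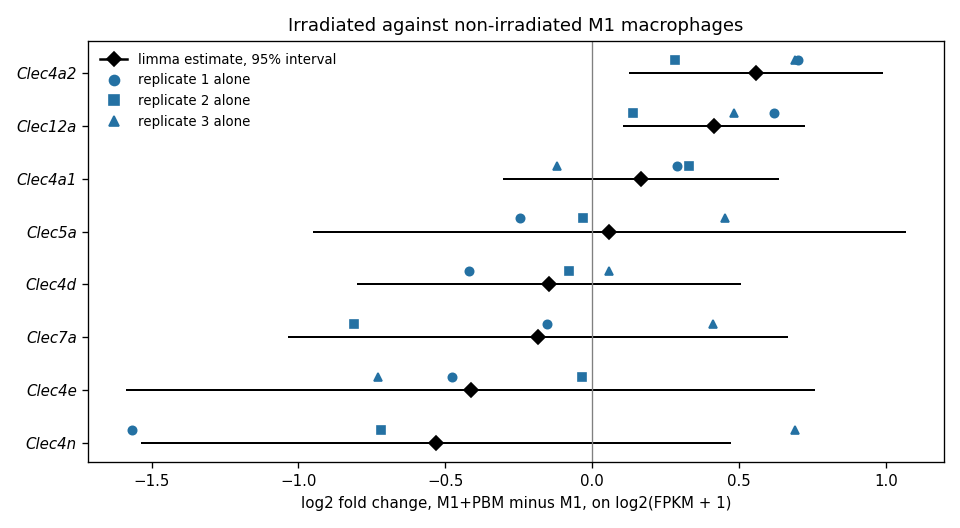
Log2 fold change between M1+PBM and M1 on log2(FPKM + 1) for the 8 tested receptors, with black diamonds for the limma estimate, lines for its 95% interval and blue symbols for the difference within each replicate number. The intervals of Clec4a2 (0.13 to 0.99) and Clec12a (0.11 to 0.72) lie above 0 and the other 6 include it.

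The members differed among themselves in how they followed the replicate number. Across the 6 stimulated libraries Clec4d moved with Clec5a (Pearson's r = 0.95, n = 6) and with Clec4e (r = 0.90, n = 6), and opposite to Clec4a1 (r = -0.93, n = 6), and within both groups replicate 3 was the lowest for Clec4d, Clec4e and Clec5a and the highest for Clec4a1. Clec4a2 and Clec12a had an r of 0.82. These values describe 6 libraries of 2 groups that share replicate numbers, and no test was made. Among 11974 other rows, the gene most like Clec4e was Hnrnpc, an RNA-binding protein (r = 0.99), then BC048403 (0.99), the one most like Clec4a1 was Pou2f2, a transcription factor of lymphoid and myeloid cells (r = 0.999), then Slc25a14 (0.99), and the one most like Clec4d was Gnl3, a nucleolar GTP-binding protein (r = 0.998), then Gm43909 (0.996). Clec12a was most like Ppp2r5d, a regulatory subunit of protein phosphatase 2A (r = 0.999), and Nup107 (0.99), and Clec4a2 was most like Pias3 and Sntb2 (r = 0.99 for both). For Clec5a they were Pno1 and Pgam5 (0.99 for both), for Clec7a Ap5m1 (0.996) and Hipk2 (0.97), and for Clec4n Gm25410 (0.99) and Gm32256 (0.97). They were picked as the highest of all these rows over 6 libraries and are given as a description.

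Of the 9 receptors, 8 lie on chromosome 6 and Clec10a lies on chromosome 11. Of these, 5 fall in 1 cluster of 9 lectin genes, in the order Clec4a1, Clec4a3, Clec4a4, Clec4b1, Clec4a2, Clec4b2, Clec4n, Clec4d and Clec4e. Clec4a1, Clec4a3 and Clec4e stood apart as higher in M1 than in M0, and Clec4b2 was listed at 0. Clec4b1 had a mean of 2.49 FPKM in M0 and 0.308 in M1, but it passed the minimum level through M0 alone, so only its values are given. Clec12a and Clec7a sit in a second cluster between Clec2d and Olr1, in which Clec2d was higher in M1 than in M0 and Clec7a was lower. Cd69 and Olr1 were also listed higher in M1. Cd69 passed the minimum level only through the stimulated libraries and Olr1 reached 1 FPKM in M1 alone, so no more is read from them. In this cluster the genes between Clec12a and Clec7a all had means below 1 FPKM.

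**Figure D4:**
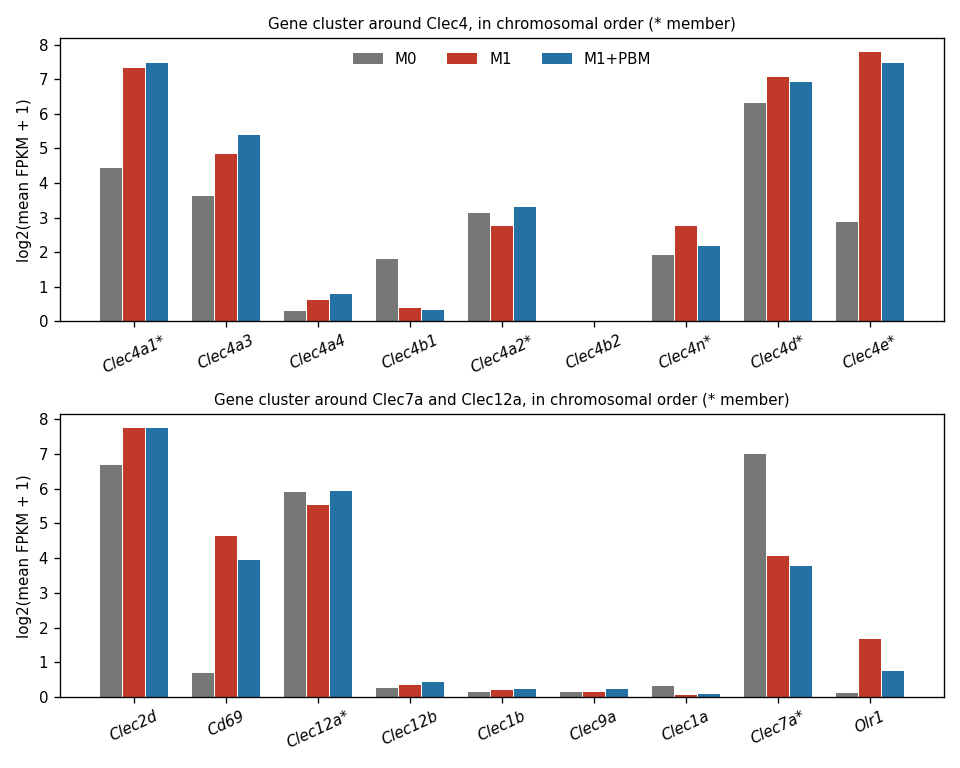
Mean FPKM of 3 libraries, as log2(mean FPKM + 1), for the genes of 2 lectin clusters on chromosome 6 in their chromosomal order and not to scale, with grey, red and blue bars for M0, M1 and M1+PBM and an asterisk on members. Clec2m, between Cd69 and Clec12a, had no value and is left out. The bars of Clec4a1 and Clec4e are taller in M1 than in M0 and that of Clec7a is shorter, while neighbours such as Clec4b2 and Clec9a are near 0.

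Among 29 other lectin genes, 6 were tested between M1+PBM and M1, 0 were called with both thresholds in the limma test, while 1 higher and 2 lower genes passed the unadjusted threshold alone, against 2.99% and 1.45% of all rows. Olr1, among the lower genes, passed the minimum level through M1 alone, so no more is read from the count of lower genes. Clec4a3, a DCIR family gene beside Clec4a1, had 20.2, 28.1 and 34.3 FPKM in M1 and 41.2, 35.7 and 45.8 in M1+PBM. The groups did not overlap, as for Clec4a2, and the log2 fold change was 0.58 (SE 0.20, unadjusted limma p of 0.028, adjusted p of 0.90). Olr1, the LOX-1 receptor for oxidized low-density lipoprotein, had 1.98, 2.70 and 1.87 FPKM in M1 and 0.637, 0.879 and 0.550 in M1+PBM. It was lower in all 3 irradiated libraries, with a log2 fold change of -0.91 (SE 0.14), but it reached the minimum of 1 FPKM through the M1 libraries alone, so that no p is given. Cd69, an early activation antigen, had a log2 fold change of -0.67 (SE 0.24, unadjusted limma p of 0.027, adjusted p of 0.90). In M1 against M0, 8 of the 29 reached the minimum level, and 5 of these stood apart as higher and 3 as lower, against 7.81% and 13.7% of all rows. Clec4b1 and Olr1 passed the minimum through 1 group alone. Colec12, counted as lower, also needed the M0 libraries to pass it, and Cd69 and Ly75, counted as higher, needed the stimulated libraries. No more is therefore read from these counts. Among the 8 were Mrc1, the mannose receptor, at 25.3, 57.1 and 54.1 FPKM in M0 and 7.64, 13.4 and 3.60 in M1, and Clec2d, a ligand of an NK cell receptor, at a mean of 101.3 ± 40.5 in M0 and 215.1 ± 40.0 in M1.

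The genes through which the receptors signal were followed as a list of 25, all of which reached 1 FPKM in at least 3 of the 9 libraries. In M1 against M0, 8 stood apart as higher, among them Fcer1g, Fgr, Lyn, Malt1, Src, Syk and Vav1, and 3 as lower (Nfatc1, Nfatc2 and Vav3), against 7.81% and 13.7% of all rows. Nfatc2 was at 0.410 to 0.744 FPKM in M1 and needed the M0 libraries to pass the minimum, so no more is read from the count of lower genes. Their median log2 difference was 0.03 against -0.34 for all rows. With median-of-ratios scaling the counts were 10 higher and 2 lower, and with quantile normalization 6 and 3. The adaptors differed in direction. Fcer1g, the adaptor of Mincle, MCL and Dectin-2, had 200.3, 202 and 215 FPKM in M0, 439, 538 and 479.8 in M1, and 397, 511 and 504 in M1+PBM, with a log2 difference of 1.23 between M1 and M0. Tyrobp, the adaptor of Clec5a, had 819.8, 1036 and 690.4 FPKM in M0, 444, 524 and 416 in M1, and 538, 499 and 516 in M1+PBM. Its M1 libraries lay below all M0 libraries, by 0.86 on the log2 scale as deposited, by 0.36 after median-of-ratios scaling and by 1.18 after quantile normalization. Syk, the kinase on which the activating receptors converge, had a mean of 58.0 ± 6.45 FPKM in M0, 162.3 ± 17.6 in M1 and 160.1 ± 36.5 in M1+PBM. Of the complex downstream of Syk, Malt1 was at 4.36 ± 1.35 FPKM in M0 and 32.1 ± 9.87 in M1, whereas Card9 was at 17.2 ± 1.85 in M0 and 13.5 ± 1.2 in M1, a difference whose direction changed with the scaling.

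Between M1+PBM and M1, 24 of the 25 signalling partners were tested and 0 were called in limma with both thresholds. The unadjusted threshold alone was passed by 1 gene, the transcription factor Nfatc1, which was higher, at 3.87, 4.0 and 3.33 FPKM in M1 and 4.59, 4.31 and 5.37 in M1+PBM, with a log2 fold change of 0.28 (SE 0.11, unadjusted limma p of 0.042, adjusted p of 0.90). The median of the 24 was 0.04 against 0.06 for all rows. The 3 with the widest fold change were Malt1 at -0.74 (SE 0.55), Inpp5d, which encodes the lipid phosphatase SHIP1, at 0.37 (SE 0.30) and Vav2, a guanine nucleotide exchange factor, at 0.33 (SE 0.26), and none of these 3 passed the unadjusted threshold without the replicate block. With the block, the unadjusted limma p was 0.043 for Malt1, 0.030 for Vav2 and 0.065 for Inpp5d (adjusted 0.58 for each), and that of Nfatc1 was 0.071. Malt1 had 31.7, 42.1 and 22.4 FPKM in M1 and 22.5, 36.1 and 7.13 in M1+PBM, so that, as for Clec4e, replicate 3 was lowest in both groups and every replicate number was lower under irradiation.

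**Figure D5:**
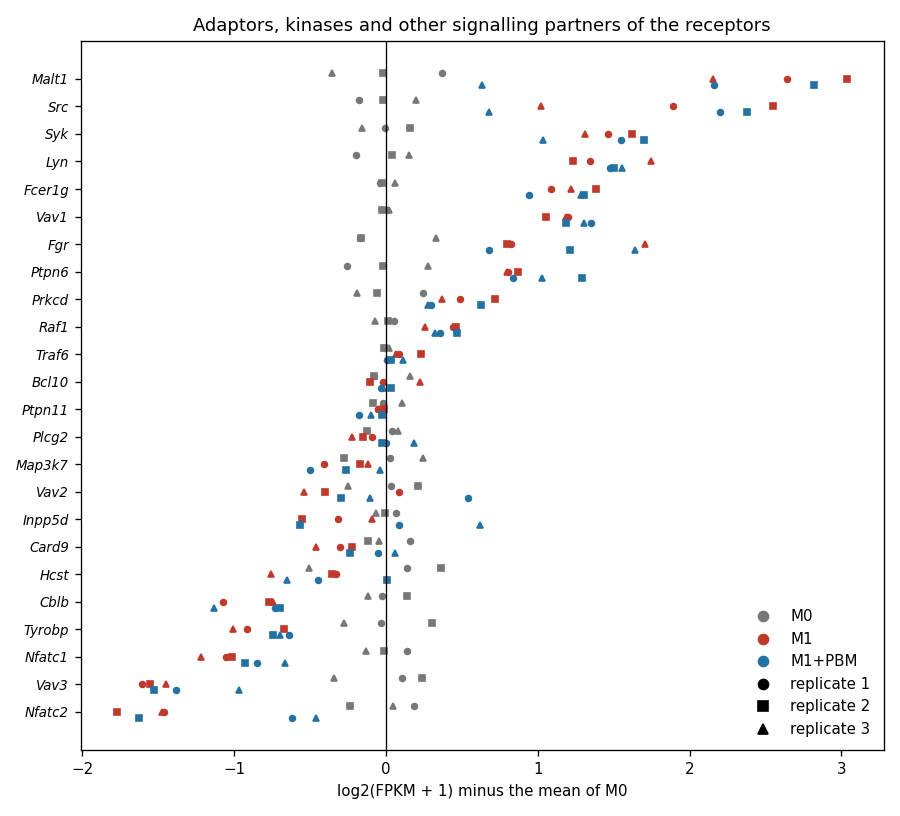
Log2(FPKM + 1) of each library minus the M0 mean of the same gene for 24 of the 25 signalling partners, ordered by the difference between M1 and M0, with grey, red and blue points for M0, M1 and M1+PBM and a shape for each replicate. Malt1, Src, Syk, Lyn, Fcer1g, Vav1 and Fgr lie to the right of their M0 libraries and Vav3, Nfatc1 and Nfatc2 to the left.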

How the data were processed

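RNA from 9 libraries was analysed from the FPKM values the authors deposited in 2 tables of 55655 rows, M0 in one and both M1 groups in the other. The study's methods name Cufflinks for FPKM, and the submitters' processing notes list Bowtie 0.12.2 and mm9. Whether the tables were normalized together is not given in the sources used here. Ensembl IDs were matched to symbols for 55154 rows. Promoter windows came from RefSeq, GRCm38.p6, a different build, which was otherwise used only for names and gene order.

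M1+PBM was compared with M1 on log2(FPKM + 1) with limma (version 3.58.1, R 4.3.3) using a linear fit, moderated with an intensity trend, and Benjamini-Hochberg adjustment, over 12238 rows with at least 1 FPKM in 3 of the 6 libraries. The script was tested on simulated data. A call needed an unadjusted p of at most 0.05 and a log2 fold change of at least 1, the thresholds of the study. The study reported many more genes at these thresholds, most of them higher with PBM. This fit called 32 rows, 3 higher and 29 lower, so its calls are not those of the study. Single members were also tested by a two-sided exact permutation test. Depth was estimated from the steps between low FPKM values, of which 24.6% to 32.2% per library were whole within 0.05 against 10% for even spread, so it is approximate, and no count test was run.

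Same-numbered M1 and M1+PBM libraries deviated together over all genes (r = 0.16, 0.47 and 0.46, against -0.49 to 0.03 for different numbers), so the numbers may pair the samples. The main limma fit and the permutation test did not use this pairing. Estimates, intervals and p-values are thus unpaired wherever the replicate block is not named.

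The members and lists were chosen with earlier results of these data known. Named genes are all members and, of both lists, every called gene, the 3 with the widest fold change and the 3 with the highest mean FPKM. Likeness was Pearson's r over 6 libraries, 2 genes per member. Syk, Card9, Nfatc1, Clec4b1, Clec4b2, Clec9a and the lists of genes standing apart were named after their values were seen. A signalling partner and a promoter pattern are not reported here.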

Additional observations from a re-analysis of the deposited data

How the results depend on the processing

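For M1+PBM against M1, 0 members were called under all 13 alternatives tried (median-of-ratios scaling, quantile normalization, no trend, a pseudocount of 0.1, a mean of at least 5 FPKM or no minimum, the replicate block and each of 6 libraries left out). Members with an unadjusted limma p of at most 0.05 ranged from 0 to 3 when 1 library was left out. There were 0 when M1 replicate 1 and 1 when M1+PBM replicate 1 was missing. Among all rows, those with such a p ranged from 252 to 1092 in the same fits. The median log2 fold change of the members ranged from -0.39 to 0.14. With the replicate block, in which same-numbered libraries are paired, 3 members had an unadjusted limma p of at most 0.05, Clec4a2, Clec12a and Clec4e. Of all 12238 rows, 988 had such a p with the block and 543 without it. The block changed no other call among the members, and among the signalling partners Malt1 and Vav2 gained and Nfatc1 lost that threshold. Over all rows the calls went from 32 to 45 with the block, 75 with a pseudocount of 0.1, 67 or 89 when replicate 2 of M1 or of M1+PBM was dropped. The fold change of Clec5a was -0.0029 with median-of-ratios scaling and lay between -0.38 and 0.35 when 1 library was left out. That of Clec7a lay between -0.46 and 0.22, of Clec4e between -0.75 and 0.082 and of Clec4d between -0.41 and 0.015. With a pseudocount of 0.1, 1 of the other lectins, Olr1, was called, a gene that reached 1 FPKM in M1 alone. Members standing apart between M1 and M0 were 5 with median-of-ratios scaling, with Clec4d and Clec4n added, and 3 to 4 when 1 library was left out. The causes were not tested. With 3 libraries a group, the 95% intervals of Clec4e, Clec4n, Clec5a and Clec7a reach beyond 1 on the log2 scale in at least 1 direction.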
